A study of Mus musculus with 12 samples.

Results

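Hcn2, Acy3, Rec8, Rasl2-9, B230317C12Rik (now named Dipk1b) and Tex264 are 6 mouse genes with no established role in mitochondria. They were chosen by their array levels on these 12 samples, for being much higher in ileum tumours labelled iPGC-1β/APCmin than in those labelled FVBN/APCmin. They were matched by symbol in the deposited table, which gave 8 of its 25697 probes, and all 6 are among the 10967 genes tested. Each of the 12 arrays measured total RNA of 1 ileum tumour sample from FVB/N mice aged 3 to 4 months, 6 arrays per genotype. FVBN/APCmin (arrays 1 to 6) and iPGC-1β/APCmin (arrays 7 to 12) both carry APCmin, an Apc allele with a premature stop codon that gives intestinal adenomas. The labels do not spell out iPGC-1β, give neither a construct nor a promoter for it, and name no treatment. Whether the tumours came from separate animals is not stated, so p-values measure only the spread between these samples.

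PGC-1β (gene Ppargc1b) is a transcriptional coactivator that binds nuclear receptors such as the estrogen-related receptors (ERRs) and raises the expression of genes for mitochondrial respiration. Sirt3, which encodes the main deacetylase of the mitochondrial matrix, is known to be induced through ERRα by the related coactivator PGC-1α. The 6 chosen genes have other known roles. Hcn2 encodes a pacemaker channel of heart and brain that opens on hyperpolarisation and binds cyclic AMP. Acy3 encodes aminoacylase III, which removes acetyl groups from N-acetylated aromatic amino acids and mercapturic acids in kidney and gut. Rec8 encodes the meiotic kleisin, the subunit that closes the cohesin ring around sister chromatids in germ cells. Rasl2-9 encodes a testis form of the nuclear transport GTPase Ran. B230317C12Rik encodes a cysteine-rich membrane protein of the endoplasmic reticulum (ER) related to secretory pathway kinases. Tex264 encodes an ER membrane receptor that delivers ER fragments to autophagosomes.

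Because PGC-1β acts on promoters through ERRs, NRF1 and GABP, the RefSeq promoter windows of the 6 genes (GRCm38.p6, from 250 bases before to 50 after the start site) were read for the letters of these factors' sites. The motifs were TCAAGGTCA (ERR element), AAGGTCA (ERR core, which lies within the ERR element), the 10-base palindromic NRF1 site and CCGGAAG (GABP), on both strands. Of the 6 genes, only Hcn2 had a match. Its promoter held 1 ERR element whose first base lay 168 bases before the start site, and a second, separate ERR core 249 bases before it. Of 32851 promoter windows of this length, 0.423% held the ERR element, 4.72% the ERR core, 0.971% the NRF1 letters and 8.86% the GABP letters. One of the 2 Sirt3 windows held a GABP match 85 bases before the start site. The windows of Hcn2 (with the matches), Acy3 (the gene whose level followed Sirt3 most closely below, with no match) and Sirt3 are shown 5′ to 3′ with motif matches in capitals. They lie on GRCm38.p6 at chr10:79716384-79716683 (plus strand), chr19:3986320-3986619 (plus strand) and chr7:140882260-140882559 (minus strand). These matches are letters in a window and not measured binding.
Hcn2: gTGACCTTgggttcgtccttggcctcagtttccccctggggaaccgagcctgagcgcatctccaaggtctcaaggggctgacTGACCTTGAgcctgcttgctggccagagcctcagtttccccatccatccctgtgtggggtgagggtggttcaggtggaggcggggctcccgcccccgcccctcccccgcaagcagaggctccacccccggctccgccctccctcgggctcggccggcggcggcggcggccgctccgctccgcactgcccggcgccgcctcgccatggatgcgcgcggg
Acy3: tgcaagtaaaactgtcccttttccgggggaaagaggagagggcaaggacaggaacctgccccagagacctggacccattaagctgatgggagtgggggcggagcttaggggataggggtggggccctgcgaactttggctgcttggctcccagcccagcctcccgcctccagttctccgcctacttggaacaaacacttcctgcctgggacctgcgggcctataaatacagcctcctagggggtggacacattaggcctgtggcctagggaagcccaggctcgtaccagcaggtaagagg
Sirt3: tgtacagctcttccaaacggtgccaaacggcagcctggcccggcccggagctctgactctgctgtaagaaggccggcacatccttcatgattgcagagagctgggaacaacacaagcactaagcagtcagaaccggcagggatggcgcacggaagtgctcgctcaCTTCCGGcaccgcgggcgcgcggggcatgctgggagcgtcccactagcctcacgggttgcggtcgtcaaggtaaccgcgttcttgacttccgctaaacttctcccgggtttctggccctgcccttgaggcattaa

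The arrays' median raw intensities lay between 139.3 and 170.5, and 12858 to 14445 probes were detected per array. For Ppargc1b itself the test of the difference did not pass (-0.55, SE 0.30; limma adjusted p = 0.296), so this probe does not bear out the label iPGC-1β/APCmin. The labels do not say where it lies relative to any construct, and directions below follow the labels. Gut epithelial genes such as Vil1, Cdx2 and the ileal bile acid binding protein gene Fabp6 were well detected, while the probes of Fabp1, Fabp2 and Slc10a2 were detected on no array. Lymphocyte genes separated the arrays differently from the labels. The mean centred log2 level of 24 lymphocyte genes was -0.80 on array 6 (other FVBN/APCmin arrays 1.23 to 1.59) and 1.72 on array 7 (other iPGC-1β/APCmin arrays -1.89 to -1.17). In tumour pieces, fewer cells of a type and less mRNA per cell cannot be told apart. Levels below are background-corrected, quantile-normalized log2 intensities, and differences are iPGC-1β/APCmin minus FVBN/APCmin with n = 6 arrays per group. Levels of different probes are not comparable, so genes are compared by their differences.

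The comparison of genotypes chose the 6 genes, so their differences are given as a description without a test. The choice had no numeric threshold. All 6 genes are among the 2.22% of genes tested that limma called higher, from which nothing is read because that contrast chose them. Among all 10967 genes ordered from the largest rise down, B230317C12Rik was at place 11, Rec8 at 16, Hcn2 at 24, Acy3 at 25, Rasl2-9 at 51 and Tex264 at 232. All iPGC-1β/APCmin arrays lay above all FVBN/APCmin arrays for 4 of the 6 genes (Hcn2, Acy3, B230317C12Rik and Tex264), a share that stands at 1.93% over all genes tested and from which nothing is read either, since the genes were chosen on these arrays. Rec8 and Rasl2-9 overlapped, each through 1 iPGC-1β/APCmin array.

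Hcn2, on chromosome 10, had 1 probe, detected on all 12 arrays. Its log2 level was 6.21, 5.49, 6.39, 5.87, 6.87 and 7.29 on arrays 1 to 6 and 8.97, 9.79, 7.99, 8.90, 9.63 and 7.82 on arrays 7 to 12. Arrays 8 and 11 were the highest, and array 12 was the lowest of its group but still above array 6. The mean went from 6.35 ± 0.66 to 8.85 ± 0.81 (SD, n = 6 each), a difference of 2.50 (SE 0.39) or 5.64-fold.

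Acy3, on chromosome 19, had 1 probe, detected on all 12 arrays. Its raw intensity lay between 321.8 and 428.1 in FVBN/APCmin and between 710.3 and 4921.8 in iPGC-1β/APCmin. On the log2 scale it was 7.88, 7.41, 7.91, 7.75, 8.11 and 8.62 on arrays 1 to 6 and 10.37, 11.19, 9.02, 10.27, 11.81 and 9.88 on arrays 7 to 12. Array 9 stood closest to the FVBN/APCmin arrays and array 11 farthest from them. The difference was 2.48 (SE 0.39) or 5.58-fold, from 7.94 ± 0.40 to 10.42 ± 0.98 (SD, n = 6 each).

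Rec8, on chromosome 14, was the most uneven of the 6. Its single probe was detected on 2 FVBN/APCmin arrays (5 and 6) and on 5 iPGC-1β/APCmin arrays. The log2 level was 4.57, 4.77, 5.03, 4.82, 5.39 and 6.40 on arrays 1 to 6 and 8.39, 9.58, 9.56, 4.58, 7.60 and 8.00 on arrays 7 to 12. Array 10 gave a raw intensity of 124.8 with a detection p-value of 0.479, at the level of the undetected FVBN/APCmin arrays, while the other 5 iPGC-1β/APCmin arrays all lay above array 6. The difference was 2.79 (SE 0.69) or 6.91-fold, from 5.16 ± 0.67 to 7.95 ± 1.84 (SD, n = 6 each), and 3.46 without array 10.

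Rasl2-9, on chromosome 7, had 1 probe, detected on 5 FVBN/APCmin arrays and all 6 iPGC-1β/APCmin arrays. Its log2 level was 5.54, 5.63, 5.13, 5.43, 6.03 and 5.04 on arrays 1 to 6 and 6.85, 7.83, 5.85, 7.48, 8.93 and 7.67 on arrays 7 to 12. Array 9 fell within the FVBN/APCmin range, below array 5, and array 11 was the highest. The difference was 1.97 (SE 0.40) or 3.91-fold, from 5.47 ± 0.36 to 7.43 ± 1.03 (SD, n = 6 each). Rasl2-9 is close in sequence to Ran, so the part of its probe's signal that came from Ran mRNA was not tested. The probe used for Ran itself had a difference of 0.01 (SE 0.20).

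B230317C12Rik, on chromosome 2, had 2 probes. The brighter was detected on 5 FVBN/APCmin and 6 iPGC-1β/APCmin arrays. The brighter probe was at 5.75, 5.95, 4.88, 5.74, 5.99 and 7.28 on arrays 1 to 6 and at 8.74, 9.55, 8.66, 8.80, 9.86 and 8.28 on arrays 7 to 12, a difference of 3.05 (SE 0.37) or 8.29-fold. The dimmer probe, detected on 2 FVBN/APCmin and 6 iPGC-1β/APCmin arrays, differed by 2.98 (SE 0.35) or 7.87-fold. With either probe array 6 was the highest FVBN/APCmin array, array 11 was the highest iPGC-1β/APCmin array, and the groups did not overlap.

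Tex264, on chromosome 9, was the steadiest of the 6 and had the smallest difference. Its brighter probe was at 9.52, 9.58, 9.24, 9.36, 9.77 and 9.84 on arrays 1 to 6 and at 10.46, 11.21, 10.71, 10.73, 11.07 and 10.61 on arrays 7 to 12. The difference was 1.25 (SE 0.17) or 2.37-fold, with group SDs of 0.23 and 0.28 (n = 6 each). The dimmer probe differed by 1.34 (SE 0.24) or 2.53-fold, also without overlap, and both probes were detected on all 12 arrays.

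The size of the differences depended on the background correction. Without it the difference was 1.45 for Rec8, 1.54 for Hcn2, 0.91 for Rasl2-9 and 1.78 for B230317C12Rik, against 2.04 for Acy3 and 1.13 for Tex264.

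**Figure D1:**
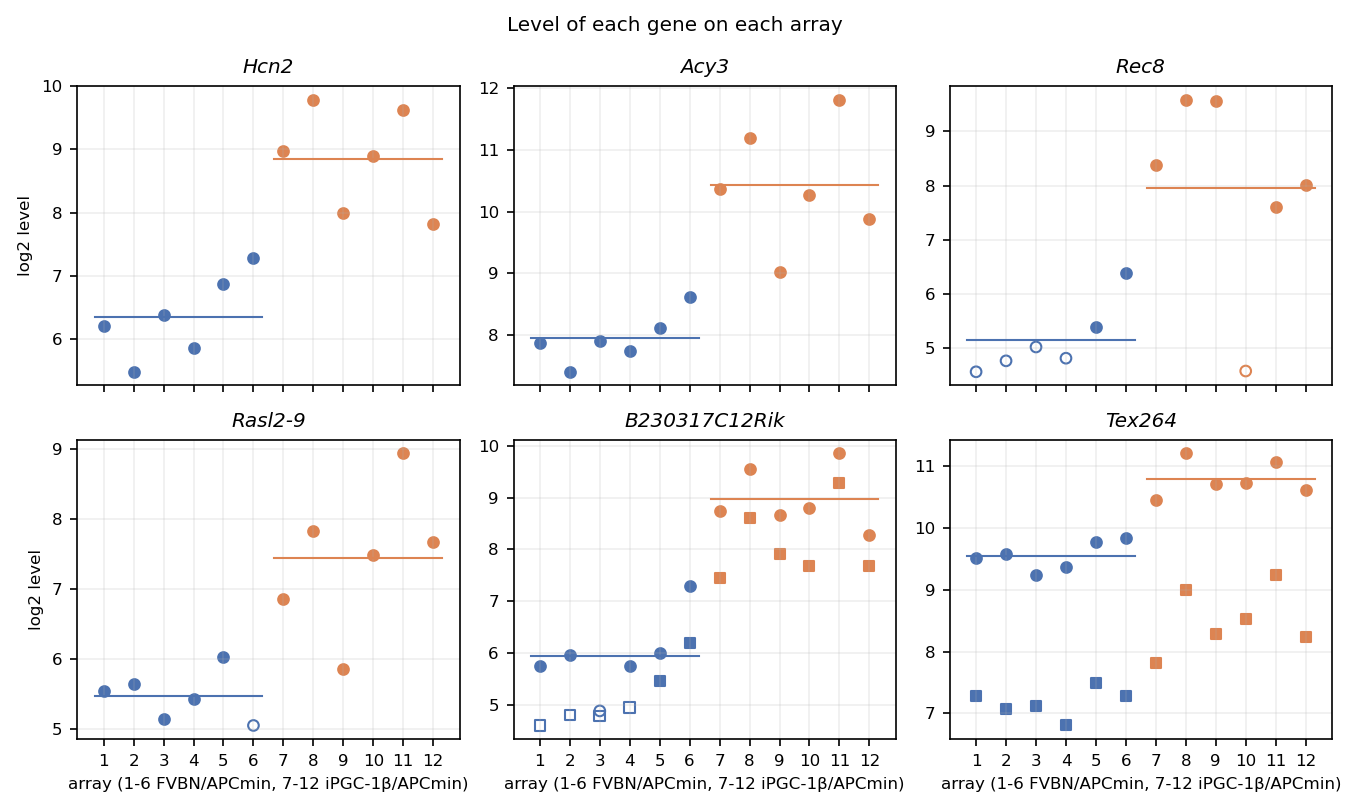
Log2 level (vertical axis) of each gene on each array (horizontal axis), blue for FVBN/APCmin (arrays 1 to 6) and orange for iPGC-1β/APCmin (arrays 7 to 12). Circles are the brightest probe, squares the second probe, open symbols arrays on which the probe was not detected (detection p-value of 0.05 or more), and lines the group means of the circles (n = 6). Rec8 on array 10 and Rasl2-9 on array 9 lie within the FVBN/APCmin range.

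Array 7, rich in lymphocyte mRNA, stood above all 6 FVBN/APCmin arrays for all 6 genes and was the lowest iPGC-1β/APCmin array only for Tex264. Array 6, poor in lymphocyte mRNA, was the highest FVBN/APCmin array for 5 of the 6 genes and the lowest for Rasl2-9. Without arrays 6 and 7 the differences ran from 1.37 (Tex264) to 3.37 (B230317C12Rik). With the lymphocyte level as a covariate they were 2.25 for Hcn2, 2.32 for Acy3, 2.41 for Rec8, 1.96 for Rasl2-9, 2.50 for B230317C12Rik and 0.97 for Tex264. Within genotype, the slope on the lymphocyte level passed for 0 of the 6 genes (limma with Benjamini-Hochberg adjustment, lowest adjusted p = 0.333 for Tex264; 0 also at an unadjusted p below 0.05), against 9.07% of all genes tested (22% unadjusted, 11.4% with a positive slope).

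Markers of cell types in which these genes are usually studied were measured beside them. Of 22 markers of enteric neurons and glia, 21 were on the array, 9 were tested, and genes such as Elavl4, Snap25, Nefl and S100b were detected on no array. Their mean centred log2 level ran from -0.32 to 0.72 in FVBN/APCmin and from -0.53 to 0.62 in iPGC-1β/APCmin. It was highest on array 6 (0.72) and array 8 (0.62), which were also the highest arrays of their groups for Hcn2, and its part in the level of Hcn2 was not tested. The 1 marker that passed, the synaptic vesicle gene Syt1, was lower (-0.92, SE 0.22; limma adjusted p = 0.0390), a call lost on leaving out any single array other than 6, 7 or 8 (adjusted p up to 0.0963) and with the lymphocyte covariate (adjusted p = 0.521). In the fit with that covariate only 0.0274% of all genes passed, so a call lost there says little about a single gene. The Syt1 probe was detected on 7 arrays, and its mean in iPGC-1β/APCmin was 4.95, near background. Of 26 germ cell and meiosis genes 23 were on the array and 4 were tested. Among those on the array 13 were detected on no array, among them the synaptonemal complex genes Sycp2 and Sycp3, the recombinase gene Dmc1, Dazl and Stra8. The level of the 4 tested ran from -0.35 to 0.48 in FVBN/APCmin and from -0.65 to 0.61 in iPGC-1β/APCmin. Of these, Spo11, which starts meiotic recombination, was lower (-1.08, SE 0.26; limma adjusted p = 0.0423). That call was lost on leaving out any single array other than 6 or 7 (adjusted p up to 0.0957) and with the lymphocyte covariate (adjusted p = 0.655). The Spo11 probe was also detected on 7 arrays, with a mean of 4.92 in iPGC-1β/APCmin, near background. Within genotype its slope on the lymphocyte level was 0.32 (SE 0.09, limma adjusted p = 0.0462). The enterocyte level, set beside Acy3, ran from 0.11 to 0.59 in FVBN/APCmin and from -0.71 to 0.32 in iPGC-1β/APCmin, with 0 of 16 tested genes passing by limma and 8 below an unadjusted p of 0.05. All 8 had a negative difference, against 11.8% of all genes tested that were below this p with a negative difference. The part of the enterocyte level in the difference of Acy3 was not tested. The endothelial level ran from -0.47 to -0.11 in FVBN/APCmin and from -0.28 to 0.95 in iPGC-1β/APCmin, and its part in the differences of the 6 genes was not tested.

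The relations to Sirt3 and to respiratory chain and TCA cycle genes were examined within genotype. The difference between genotypes, by which the genes were chosen, therefore did not enter them. Sirt3 was at 8.87, 9.01, 8.81, 8.91, 9.04 and 9.03 on arrays 1 to 6 and at 10.65, 11.31, 9.97, 10.82, 11.47 and 10.35 on arrays 7 to 12. It hardly varied in FVBN/APCmin (SD 0.10) and varied more in iPGC-1β/APCmin (SD 0.57), where arrays 11 and 8 were the highest and array 9 the lowest. Acy3 followed the same order with 1 exchange, of arrays 7 and 10. In the limma fit with genotype and Sirt3 level as terms, the level of Acy3 rose by 1.68 log2 units per log2 unit of Sirt3 (SE 0.26, adjusted p = 0.0210) and that of Rasl2-9 by 1.55 (SE 0.35, adjusted p = 0.0431). These were 2 of the 6 genes, against 2.42% of all genes tested. At an unadjusted p below 0.05 they were 5 of 6, all with a positive slope, against 10.3% of all genes with a positive slope and 19.9% in either direction. These 5, all but Rec8, are not separate results. Their deviations from the genotype means were correlated with each other (Pearson's r 0.34 to 0.87 over 10 pairs). The slopes of Hcn2 (1.36, SE 0.38, adjusted p = 0.0752), B230317C12Rik (1.07, SE 0.41, adjusted p = 0.169), Tex264 (0.42, SE 0.19, adjusted p = 0.244) and Rec8 (-0.43, SE 0.96, adjusted p = 0.855) did not pass. The call of Acy3 was lost without array 8 (adjusted p = 0.0547), array 9 (0.188) or array 11 (0.0590), with slopes of 1.76, 1.61 and 1.52. Leaving out 1 array at a time, the call of Rasl2-9 held only when that array was 6, 7 or 12, and its adjusted p reached 0.304 without array 9. Sirt3 and these genes were read from the same RNA on the same arrays. The fit gives both genotypes the same slope. Sirt3 hardly varied in FVBN/APCmin, so these slopes and counts rest mostly on the iPGC-1β/APCmin arrays. Enterocyte genes also had positive slopes on Sirt3, such as Cdx2 (0.87, SE 0.23, limma adjusted p = 0.0617) and Slc5a1 (1.03, SE 0.29, limma adjusted p = 0.0825). Those of Cdh1, Krt8, Krt18 and Krt19 were negative (-0.08, -0.21, -1.23 and -0.56). The part of epithelial content, shared RNA quality or labelling in the slopes of the chosen genes was not tested.

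**Figure D2:**
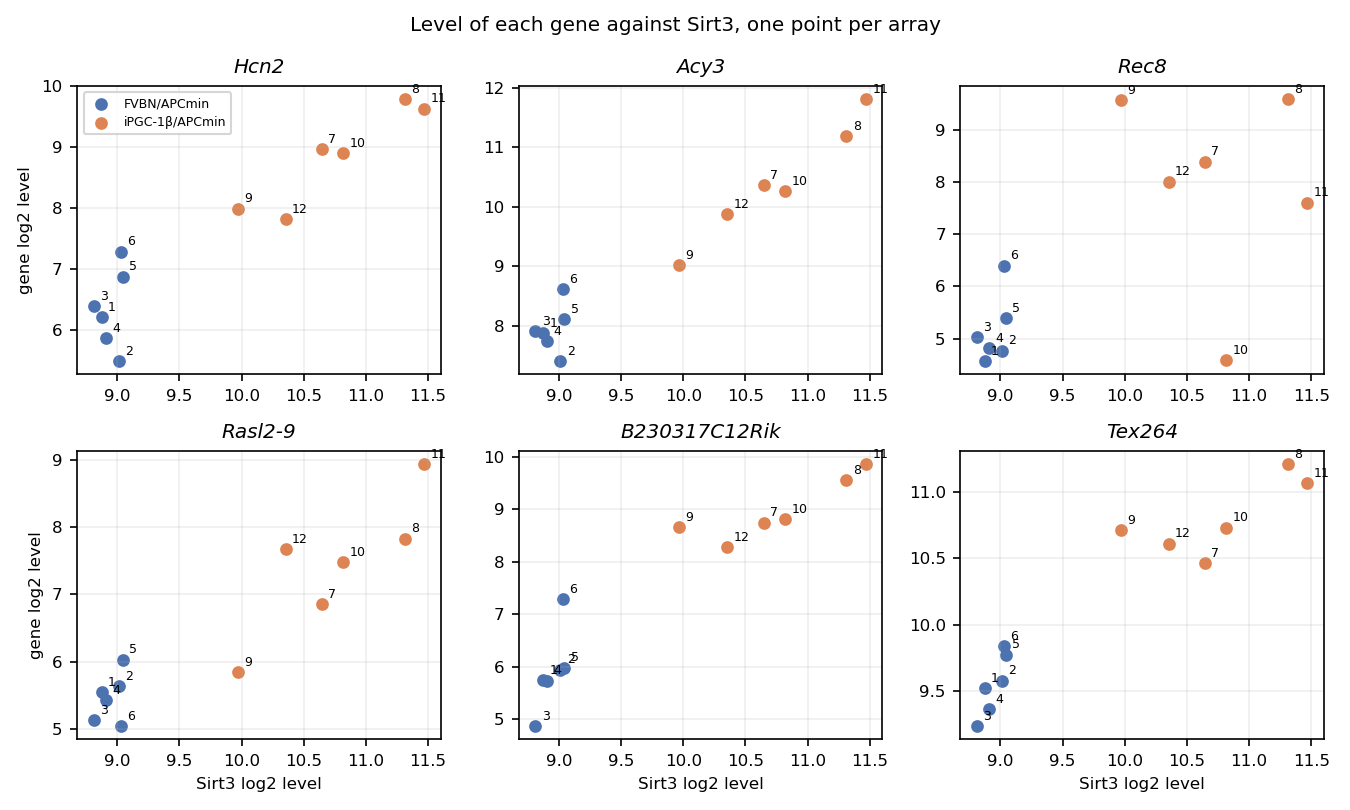
Log2 level of each gene (vertical axis) against the log2 level of Sirt3 (horizontal axis), 1 point per array with its number, blue for FVBN/APCmin and orange for iPGC-1β/APCmin. Within iPGC-1β/APCmin, Acy3 climbs with Sirt3 from array 9 to array 11, while Rec8 does not follow it.

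Correlations with Sirt3 were also taken within each group of 6 arrays. Values without 2 arrays leave out those farthest from the group's median Sirt3 level. They rest on very few points and were not tested. Within iPGC-1β/APCmin, Pearson's r with Sirt3 was 0.982 for Acy3 (exact permutation p = 0.00278; Spearman's rho 0.943, exact permutation p = 0.0167) and 0.967 without arrays 9 and 11. It was 0.935 for Hcn2 (exact permutation p = 0.0222; rho 0.829, p = 0.0583) and 0.949 without those arrays, and 0.881 for B230317C12Rik (exact permutation p = 0.0292; rho 0.943, p = 0.0167) and 0.992 without them. For Rasl2-9 r was 0.855 (exact permutation p = 0.0319; rho 0.829, p = 0.0583) but 0.36 without arrays 9 and 11, so it rests on those arrays. Tex264 had an r of 0.739 (exact permutation p = 0.0986; rho 0.714, p = 0.136) and Rec8 of -0.17 (exact permutation p = 0.764; rho -0.26, p = 0.658). Within FVBN/APCmin, r with Sirt3 ran from 0.280 (Acy3) to 0.898 (Tex264; exact permutation p = 0.0153; rho 0.886, p = 0.0333), whose r was 0.921 without arrays 1 and 3. For B230317C12Rik it was 0.762 (exact permutation p = 0.0472) and 0.485 without those arrays. Of the 24 relations computed (6 genes, 2 levels, 2 groups) 0 passed after Benjamini-Hochberg adjustment, with 7 at an unadjusted exact permutation p below 0.05. These correlations were computed for the 6 genes only. No share over all genes stands beside the 7, and nothing is read from that count. The lowest adjusted p was 0.0667 for r and 0.20 for rho (two-sided).

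The respiratory chain and TCA cycle as a whole gave another order than Sirt3. The mean centred log2 level of 79 such genes ran from -0.69 to -0.25 on the FVBN/APCmin arrays and from -0.09 to 1.12 on the iPGC-1β/APCmin arrays, with array 8, which was among the highest for all 6 genes, at 0.29. Within genotype Rasl2-9 rose by 1.80 log2 units per log2 unit of this level (SE 0.37, limma adjusted p = 0.0222), 1 of the 6 genes against 3.58% of all genes tested. At an unadjusted p below 0.05 there were 2, Rasl2-9 and, with a negative slope, Rec8, against 18.1% of all genes (9.4% with a positive slope). That call was lost without array 9 (1.39, adjusted p = 0.0618) or array 11 (1.49, adjusted p = 0.208), and without arrays 6 and 7 together (2.00, adjusted p = 0.0535). The slopes of Hcn2 (0.10, SE 0.60), Acy3 (0.88, SE 0.55), B230317C12Rik (0.41, SE 0.56) and Tex264 (0.22, SE 0.24) did not pass. Rec8 had a slope of -2.11 (SE 0.91, adjusted p = 0.239). Sirt3 itself had a slope of 0.60 on this level (SE 0.30, limma adjusted p = 0.329) and did not pass. This slope was positive, and a test that did not pass does not show that Sirt3 varied apart from these genes. Slopes on Sirt3 and on this level are therefore given side by side.

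Deviations from the genotype mean show which arrays the genes share. In iPGC-1β/APCmin, array 8 was highest or second for all 6 genes and array 11 for 5 of them, Rec8 excepted. In FVBN/APCmin, array 5 was highest or second for all 6. The smooth muscle level (10 genes tested, 0 passing, 0 at an unadjusted p below 0.05 between genotypes) was positive on these 3 arrays and on array 6 only, at 0.67 on array 5, 1.39 on array 6, 1.43 on array 8 and 0.20 on array 11. Its part in this pattern was not tested. Rec8 stood apart through array 10, with a deviation of -3.37, and through array 9, at 1.61. On array 9 the deviations of Hcn2, Acy3 and Rasl2-9 were -0.86, -1.40 and -1.59. Those of B230317C12Rik and Tex264 were smaller there, at -0.32 and -0.09.

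**Figure D3:**
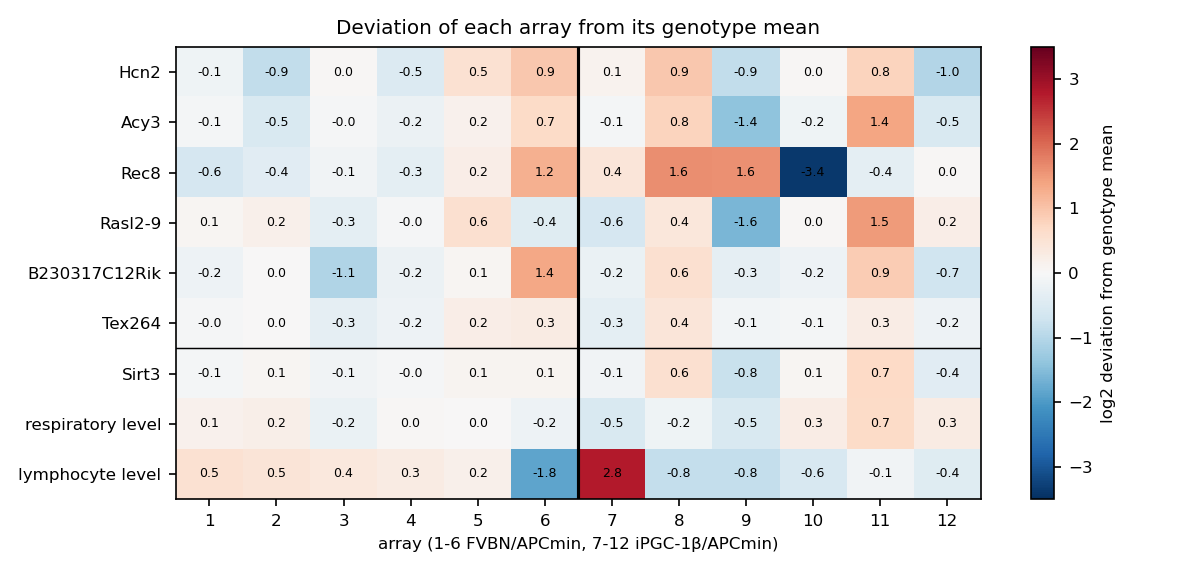
Log2 deviation of each array (columns) from the mean of its genotype for the 6 genes, Sirt3, the respiratory chain and TCA cycle level and the lymphocyte level (rows), red above and blue below the mean. The vertical line divides FVBN/APCmin from iPGC-1β/APCmin. Arrays 8 and 11 are above the mean for Hcn2, Acy3, Rasl2-9, B230317C12Rik, Tex264 and Sirt3.

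Among 9574 other named genes, those whose deviations over the 12 arrays were most like each of the 6 are given as a description, with Pearson's r. For Hcn2 they were the iron transporter gene Slc11a2 (0.971), Abca7 (0.970) and the mitochondrial carrier gene Slc25a44 (0.966). For Acy3 they were the cation exporter gene Slc47a1 (0.970), Tmem86b (0.960) and Nags (0.952), which encodes N-acetylglutamate synthase of the mitochondrial matrix. Rec8 had weaker likenesses, to Srpr (0.867), Parp12 (0.859) and Prelp (0.849). For Rasl2-9 they were Macrod1 (0.956), the pyruvate carrier subunit gene Brp44 (now Mpc2, 0.942) and Cmbl (0.940). For B230317C12Rik they were Dusp26, Dmpk and Paf1 (0.898 to 0.899), and for Tex264 Ndn (0.957), the pyruvate carboxylase gene Pcx (0.946) and Tpm2 (0.916), which is in the smooth muscle list. Sirt3 stood at place 22 of this order for Acy3, 89 for Rasl2-9, 386 for B230317C12Rik, 523 for Tex264, 563 for Hcn2 and 6347 for Rec8.

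Among relatives and partners of the 6 genes, none passed as higher. Over 6 family lists 116 genes were listed, 103 were on the array and 82 were tested. By limma 0 passed as higher and 1 as lower, which is 1.22% of them against 3.45% of all genes tested, and 14 had an unadjusted p below 0.05, against 23.3% of all genes. The median difference of the 82 was -0.12, against -0.01 over all genes. Without array 7 the counts were 3 higher and 8 lower, which is 13.4% of the 82 against 16.6% of all genes in that fit.

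In the HCN and cyclic nucleotide gated channel list, the subunit gene Kcne2 was detected on no array. Hcn3 (-0.12, SE 0.16) and Cnga1 (0.18, SE 0.26) were tested, and neither passed.

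In the list around Acy3 (N-acetyl amino acids, mercapturates and the peptidases of glutathione breakdown), 0 of 14 tested genes passed and the median difference was -0.22. Acy1, the cytosolic aminoacylase, went from 11.81 to 11.58 (difference -0.23, SE 0.26) and Aspa, the nearest relative of Acy3, from 5.41 to 5.20 (-0.21, SE 0.20). The largest differences in this list were 1.14 (SE 0.35, limma adjusted p = 0.0788) for the N-acetyltransferase gene Nat8 (Cml4 in the file), -1.22 (SE 0.32, limma adjusted p = 0.0528) for the dipeptidase gene Dpep1 and -1.60 (SE 0.42, limma adjusted p = 0.0516) for Anpep, a brush border aminopeptidase that is also in the enterocyte list.

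Of 15 tested cohesin genes 0 passed, and 14 had a negative difference, with a median of -0.34 against -0.01 over all genes tested. Rad21, the mitotic kleisin gene and counterpart of Rec8, differed by -0.05 (SE 0.21), and Nipbl, which loads cohesin, by -0.56 (SE 0.24, limma adjusted p = 0.178). The meiotic partners of Rec8 were not seen, since the Smc1b probe was detected on no array and the Stag3 probe on 1.

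In the Ran and nuclear transport list 0 of 16 tested genes passed, with differences from -0.36 to 0.48 and a median of 0.01. Among the secretory pathway kinases 0 of 7 tested passed, with a median of -0.19. Dipk1a (2900024C23Rik in the file), a close relative of Dipk1b, went from 8.44 to 7.86 (-0.58, SE 0.16, limma adjusted p = 0.0540), and Fam20b, a xylose kinase gene, differed by -0.31 (SE 0.23). The Dipk1c probe was detected on no array.

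In the ER-phagy and autophagy list 1 of 28 tested genes passed and the median difference was -0.02. Cdk5rap3, an adaptor of ER-phagy at ribosomes, fell by 0.74 (SE 0.17, limma adjusted p = 0.0300), a call lost without array 1, 2, 3, 4, 5, 10 or 11 (adjusted p 0.0575 to 0.0743) and with the lymphocyte covariate (adjusted p = 0.245). Only 0.0274% of all genes passed with that covariate. The other ER-phagy receptor genes included Retreg1 (Fam134b in the file; 0.17, SE 0.33), Rtn3 (0.24, SE 0.21), Ccpg1 (D9Ertd392e in the file; 0.29, SE 0.15) and Atl3 (0.39, SE 0.22), none of which passed. The ubiquitin-like Gabarap, which is among the Atg8 proteins that Tex264 binds, differed by 0.18 (SE 0.18), and Vcp, an unfolding ATPase that works with Tex264 in DNA repair, by -0.33 (SE 0.17).

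**Figure D4:**
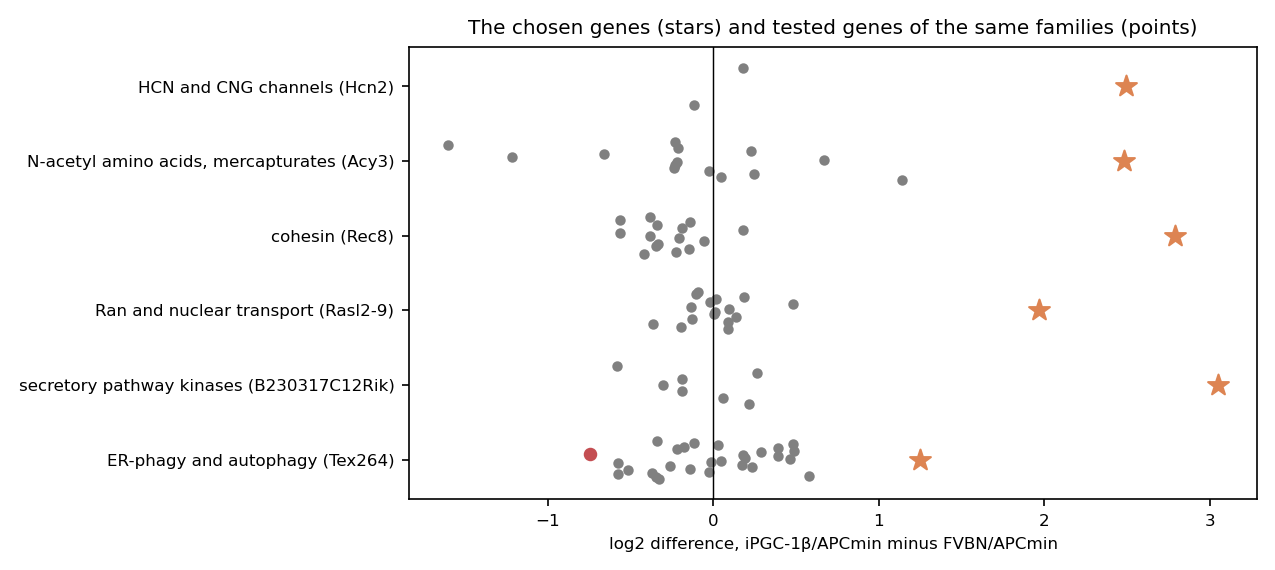
Log2 difference (horizontal axis, iPGC-1β/APCmin minus FVBN/APCmin) of the 6 chosen genes (stars) and of the tested genes of the 6 family lists (points, vertical spread within a row for visibility only). The red point is Cdk5rap3, the single family gene that passed the limma test. The stars run from 1.25 to 3.05 and the points from -1.60 to 1.14.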

How the data were processed

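Total RNA of 12 ileum tumour samples was hybridised to Illumina bead arrays. Per the file headers, 1 deposited table gives each probe's mean signal intensity and detection p-value on every array. The authors' normalized table, used as an alternative, has column medians of 157.8 to 158.1, is linear intensity too and correlates with the first (lowest r 0.999). Its normalization method was not given in the sources. The submitters' processing notes name GenomeStudio. Background correction from the detection p-values, an offset of 16, quantile normalization and log2 were applied with neqc of limma 3.58.1 (R 4.3.3). A probe was kept if detected, at a p-value under 0.05, on 4 arrays or more (14827 probes), and the brightest kept probe stood for each gene. All 8 probes of the 6 genes passed. Differences and within-genotype slopes were fitted with lmFit and eBayes (intensity trend), with Benjamini-Hochberg adjustment over all genes tested (a slope's own covariate genes left out) and a threshold of 0.05. The fits were tested on simulated data of 10967 genes with 200 changed genes, in 5 runs. Named were the 6 genes, Sirt3, Ppargc1b, the 3 genes most like each, fixed near relatives, and up to 4 passing genes per family list. Syt1, Spo11, the other marker genes, and the family genes outside these groups (such as Kcne2, Cnga1, Nat8, Dpep1, Anpep, Nipbl, Rtn3, Ccpg1, Atl3, Gabarap, Vcp) were named after their values were seen. The members, lists and tests were chosen with earlier results of these data known. The number of arrays limits the precision. Motifs were read from RefSeq promoter tables, which matched all 6 genes.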

Additional observations from a re-analysis of the deposited data

Results flagged for a closer look

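The lymphocyte level set 2 arrays far from the rest of their groups, by a test of the gap to the nearest array against the group's range, which chance alone meets in about 1 group in 20. Array 6 of FVBN/APCmin was at -0.80 and array 7 of iPGC-1β/APCmin at 1.72. None of the 6 chosen genes, Sirt3, Ppargc1b or the respiratory chain and TCA cycle level met this test in either group.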

How the results depend on the processing

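The differences of the 6 genes kept their positive sign under all 22 alternatives. Leaving out 1 array gave 2.31 to 2.70 for Hcn2, 2.20 to 2.76 for Acy3, 2.46 to 3.46 for Rec8, 1.67 to 2.28 for Rasl2-9, 2.84 to 3.32 for B230317C12Rik and 1.16 to 1.31 for Tex264. Without background correction Hcn2 was at 1.54, Rasl2-9 at 0.91, B230317C12Rik at 1.78 and Rec8 at 1.45, and in the authors' normalized table at 1.54, 0.92, 1.79 and 1.46. Tex264 was at 0.97 with the lymphocyte level as a covariate. Family genes passing lower were 0 with a common 75th percentile, without a filter or with the lymphocyte covariate, 4 with the stricter filter, 2 without the trend and 10 (with 3 higher) without arrays 6 and 7, where 15.9% of family genes and 19.9% of all genes passed. Leaving out 1 array gave 0 to 8 lower and 0 to 3 higher. The members passing on the Sirt3 level were 1 without a filter and 0 to 2 on leaving out 1 array. Those passing on the respiratory level were 0 without arrays 6 and 7 and 0 to 1 on leaving out 1 array. Hcn2 passed on the Sirt3 level with an offset of 50 (adjusted p = 0.0445), without background correction (0.0235), in the authors' normalized table (0.0239) and without arrays 6 and 7 (0.0335). The genes passing over the whole table were 243 higher and 135 lower, and 1056 and 1128 without arrays 6 and 7, 2 and 1 with the lymphocyte covariate, 130 and 70 without a filter, 199 and 89 with the common 75th percentile, and from 92 and 35 (without array 3, and array 1) up to 848 and 973 (without array 7) on leaving out 1 array. The cause of these changes was not tested. No paired analysis was possible because the replicate numbers of the groups do not overlap. Rec8 and the dimmer B230317C12Rik probe were near background on most FVBN/APCmin arrays, which limits the precision of their fold. Rasl2-9, the brighter B230317C12Rik probe and Hcn2 were also low there. Their raw intensities in FVBN/APCmin were 132.4 to 193.6, 145 to 218.7 and 172.2 to 250.1. The same limit holds for their folds, which were smaller without background correction.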

Other observations

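Genes of the family lists also varied with Sirt3 within genotype. Of the 82 tested, 6 passed (7.32%, against 2.42% of all genes tested; limma), 3 with a positive and 3 with a negative slope. The positive ones belong to the list around Acy3, the dipeptidase gene Dpep1 (1.30, SE 0.26, adjusted p = 0.0349), the carnosine dipeptidase gene Cndp2 (1.21, SE 0.23, adjusted p = 0.0316) and the cysteine conjugate lyase gene Kyat1 (Ccbl1 in the file; 1.05, SE 0.22, adjusted p = 0.0385). Their differences between genotypes were -1.22, -0.66 and -0.03, unlike the 2.48 of Acy3. The negative ones were the nuclear transport genes Ipo5 (-0.92, SE 0.19, adjusted p = 0.0355) and Rangap1 (-0.88, SE 0.21, adjusted p = 0.0471) and the cohesin protector gene Sgo1 (Sgol1 in the file; -1.30, SE 0.29, adjusted p = 0.0410). These slopes were looked at after the others were known and were not run under the alternatives.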
